A study of Mus musculus with 30 samples.

Results

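The collagen genes are described here across tumour, early lung and late lung stages of a transplanted mouse mammary cancer. Members were the genes whose symbol is Col, a number, the letter a and a number, and that had at least 10 counts summed over the 30 libraries. The count table lists 49315 genes, of which 44 carried such a name and 42 were members: 11 fibrillar collagens, 6 basement membrane collagens (type IV), 6 type VI collagens and 19 others. Of the 42, 37 passed the filter on low counts and were tested. Col6a5, Col6a6, Col9a2, Col19a1 and Col22a1 did not pass it and stayed at or below 0.649 TPM in every library, and Col25a1 and Col26a1 had fewer than 10 counts in all.

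All 30 libraries were made from 4T1-tdTomato cells, a breast cancer line derived from a BALB/c mouse and marked with red fluorescence, recovered from female mice by sorting for DAPI-, CD45- and tdTomato+ single cells after digestion of the organ with collagenase IV and DNase I. There were 6 groups of 5 libraries. NSG mice, which lack T, B and NK cells, gave tumours (day 10), DTC (lung, day 7; the abbreviation is not spelled out in the labels) and macro-mets (lung, days 19 and 20). BALB/c mice, which have the immune system of the strain the line came from, gave tumours (days 21 and 22), DTC (lung, day 7) and macro-mets (lung, days 21 and 23). Tumours grew from 200000 cells placed in the mammary fat pad and lung samples from 500000 cells injected in the tail vein, so in the comparisons with tumours organ, route and cell number change together and cannot be told apart from stage, while DTC and macro-mets share all of these. The day also differs between the strains for tumours and macro-mets, so in strain comparisons that use these stages strain cannot be told apart from day. The labels do not say that the libraries come from separate animals, so p-values measure the spread between these libraries, and all groups are 1 cell line.

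Collagens are extracellular matrix proteins whose chains wind into a triple helix. Fibrillar types I, III and V form the banded fibres of connective tissue, type IV forms the sheet of the basement membrane beneath epithelia and around vessels, and type VI forms beaded filaments that lie between fibres and basement membranes. Carcinomas deposit and remodel all of these, most of the fibrillar collagen around a carcinoma is usually made by fibroblasts, and type IV is made by epithelial and endothelial cells.

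Total counts per library ran from 29832098 to 65621525. The sorted cells carried the epithelial genes of 4T1 in every library (8 markers, 7211 to 15140 TPM in sum, lowest in NSG DTC 3). A number of libraries stood apart from their group. BALB/c DTC replicates 1 and 2 held 9973 and 4232 TPM of 16 lung epithelium markers, against 54.7 to 629.6 TPM in the other 28 libraries. The libraries with the fewest genes detected were BALB/c tumour 4 (17517), NSG macro-met 3 (18297), NSG tumour 2 (18593) and NSG tumour 3 (19049), and these 4 also had the highest sums of 12 skeletal muscle markers in their strain and stage (215, 106, 99.5 and 99.8 TPM, against 24.6 to 70.8 TPM in the other 26 libraries). Some results that change without these 6 libraries are given below with both values, but not all. Among changes of named members, 21 of 133 calls were lost and 25 gained without the 4 libraries poorest in genes. Without BALB/c DTC 1 and 2, 15 of 134 were lost and 4 gained. A change given below as not called may therefore be called without these libraries. Levels are TPM, which is per length, with the values of a group listed as replicates 1 to 5. Changes are log2 fold changes ± SE of TMM-scaled counts (n = 5 libraries per group) with edgeR's quasi-likelihood test adjusted over 17774 genes, so a ratio of TPM can differ a little from the fold change. A gene was called at an adjusted p under 0.05.

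Col4a1 and Col4a2, which encode both chains of the most widespread type IV collagen, are the members whose levels are given first below, and their shared start region is shown because the genes are transcribed away from each other out of it. Both windows are from RefSeq on GRCm38.p6, 250 bases before and 50 after the start site, 5′ to 3′ on the strand of the gene. Col4a1 is at chr8:11312777-11313076 on the minus strand and Col4a2 at chr8:11312555-11312854 on the plus strand. The start sites are 21 bases apart and the windows share 78 bases. Capitals mark GGGCGG (or CCGCCC, its complement) and CCAAT (or ATTGG), searched on both strands; the marked matches do not overlap one another.
Col4a1: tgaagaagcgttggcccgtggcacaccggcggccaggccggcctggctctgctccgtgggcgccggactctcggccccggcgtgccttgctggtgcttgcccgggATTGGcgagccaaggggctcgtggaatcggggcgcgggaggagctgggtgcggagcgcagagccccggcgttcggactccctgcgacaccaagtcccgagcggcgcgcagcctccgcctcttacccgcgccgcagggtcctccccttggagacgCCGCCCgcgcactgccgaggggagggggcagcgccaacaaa
Col4a2: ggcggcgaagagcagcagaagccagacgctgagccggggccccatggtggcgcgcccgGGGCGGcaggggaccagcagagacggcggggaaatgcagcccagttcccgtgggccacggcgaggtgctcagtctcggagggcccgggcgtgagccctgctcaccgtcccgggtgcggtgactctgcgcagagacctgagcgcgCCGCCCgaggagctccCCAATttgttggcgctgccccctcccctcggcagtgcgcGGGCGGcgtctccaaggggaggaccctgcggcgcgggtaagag
The Col4a1 window had 1 GGGCGG and 1 CCAAT, and the Col4a2 window had 3 GGGCGG and 1 CCAAT. The 1 GGGCGG in the shared stretch is the same bases read from opposite strands, and no CCAAT lies in it. TATAAA was in neither window. Of 32851 promoter windows of the same length in the table, 35.66% held GGGCGG, 37.41% held CCAAT and 13.62% held TATAAA. Of the 34 members with a window, 21, 12 and 5 held them in that order. A member was counted if any of its windows held the letters (37 windows in all), while the percentages are per window. These matches are letters only and were tied to no factor. The GC content of the windows was 74.0% and 73.67%.

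The transcript level was concentrated in few genes. By mean TPM over all libraries the order was Col6a1 (599.9 TPM), Col18a1 (369.7), Col4a1 (187.7), Col4a2 (131.6), Col6a2 (128.8), Col5a1 (80.04), Col16a1 (75.18), Col7a1 (48.36), Col8a1 (44.81), Col4a5 (30.02) and Col1a1 (29.65), and every other member averaged less than 7 TPM. In each library 3 members supplied 51.2 to 70.1% of all collagen TPM. Ranges of neighbours overlapped widely (260.5 to 933 TPM for Col6a1, 110.1 to 717 for Col18a1, 77.2 to 303 for Col4a1, 51.1 to 230.4 for Col4a2, 49.4 to 224 for Col6a2). The members of lowest rank were at or near 0 in most libraries, and Col19a1 had all of its 13 counts in BALB/c tumour 4.

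Summed over all members, collagen TPM was 1777 ± 260.2 (SD, n = 5) in NSG tumours, 1720 ± 462.5 in NSG DTC and 2509 ± 166 in NSG macro-mets, while the BALB/c sums were 1087 ± 155.8 for tumours, 1581 ± 314.6 for DTC and 1888 ± 124.8 for macro-mets. In both strains all 5 macro-met sums lay above all 5 tumour sums, while the DTC sums overlapped both other stages in BALB/c mice and the tumours in NSG mice. Type VI collagens supplied 26.9% of the sum in NSG tumours, 44.3% in NSG DTC and 42.9% in NSG macro-mets, and 40.7%, 52.0% and 44.2% in the BALB/c groups in the same order. Fibrillar collagens supplied 5.51 to 10.6% of the sum by group and type IV 17.0 to 21.9%. BALB/c tumour 4 was the exception, with 21.5% of its collagen TPM from fibrillar genes.

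**Figure D1:**
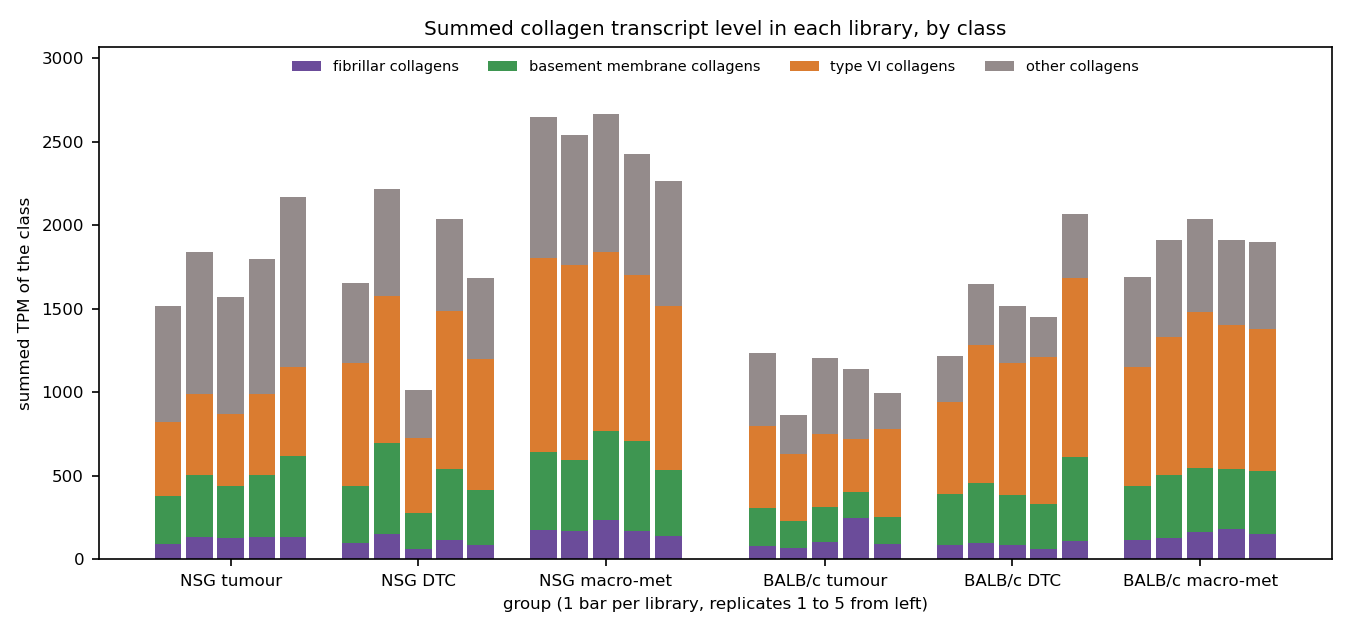
Summed TPM of the fibrillar, basement membrane, type VI and other collagens in each of the 30 libraries (1 stacked bar per library, NSG groups left, BALB/c groups right). Macro-met bars are taller than tumour bars in both strains, NSG DTC 3 is the shortest NSG bar, and the fibrillar segment of BALB/c tumour 4 is the tallest of its kind.

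Against tumours, fewer members rose than fell in DTC of both strains, and against DTC more rose than fell in macro-mets. The BALB/c DTC part turned to 12 rises and 11 falls without the 4 libraries poorest in genes, and was 10 and 11 without BALB/c tumour 4 alone. In NSG DTC against NSG tumours 4 of 37 members rose and 10 fell (16.0% and 9.55% of all genes tested). Beside these 14 calls, 8 to 12 members were called in the omissions of 1 library (8 without NSG DTC 4 or 5) and 7 with limma on log2(TPM + 1). In BALB/c DTC against BALB/c tumours 8 rose and 14 fell (20.4% and 21.0% of all genes). The median member changed by -0.25 in NSG and -0.76 in BALB/c mice, beside medians of 0.06 and -0.09 over all genes. In NSG macro-mets against NSG DTC 18 rose and 0 fell (21.3% and 22.4% of all genes; median 0.88, all genes 0.02). In BALB/c macro-mets against BALB/c DTC 10 rose and 3 fell (16.6% and 14.2%; median 0.41, all genes -0.04). The rises in BALB/c DTC were close to the share of all genes, while the falls in DTC and the rises in macro-mets were above it. The comparisons of 1 strain share the DTC libraries, and members that passed the low-count filter only through 1 group had to differ there, so the counts are a description. DESeq2 called 19 rises and 0 falls among the members in NSG macro-mets against NSG DTC, and edgeR had 0 falls at an unadjusted p under 0.05 as well.

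Against tumours, 9 members rose and 1 fell in NSG macro-mets (16.9% and 13.6% of all genes; median 0.53, all genes 0.02). In BALB/c macro-mets 10 rose and 10 fell (19.6% and 18.2%; median 0.06, all genes -0.03). In BALB/c macro-mets 7 of the 8 fibrillar members called were lower, and all 4 type IV and 2 type VI members called were higher. Without BALB/c tumour 4 the calls were 10 higher and 4 lower, and 5 of the 7 fibrillar falls (Col1a1, Col1a2, Col2a1, Col11a1 and Col27a1) were no longer called, while those of Col3a1 and Col11a2 were kept. The split was 11 higher and 5 lower with limma on log2(TPM + 1) and 8 and 14 with offsets for GC content and length, and the difference between classes was not tested. Between the strains, NSG minus BALB/c, 5 members were higher and 2 lower in tumours (12.6% and 11.0% of all genes), 4 higher and 3 lower in DTC (21.7% and 17.1%), and 2 higher and 0 lower in macro-mets (0.760% and 1.88%; edgeR also had 0 lower at an unadjusted p under 0.05, and DESeq2 called 5 higher and 0 lower). In sorted bulk samples, fewer cells of a type and less RNA per cell cannot be told apart in any of these differences.

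**Figure D2:**
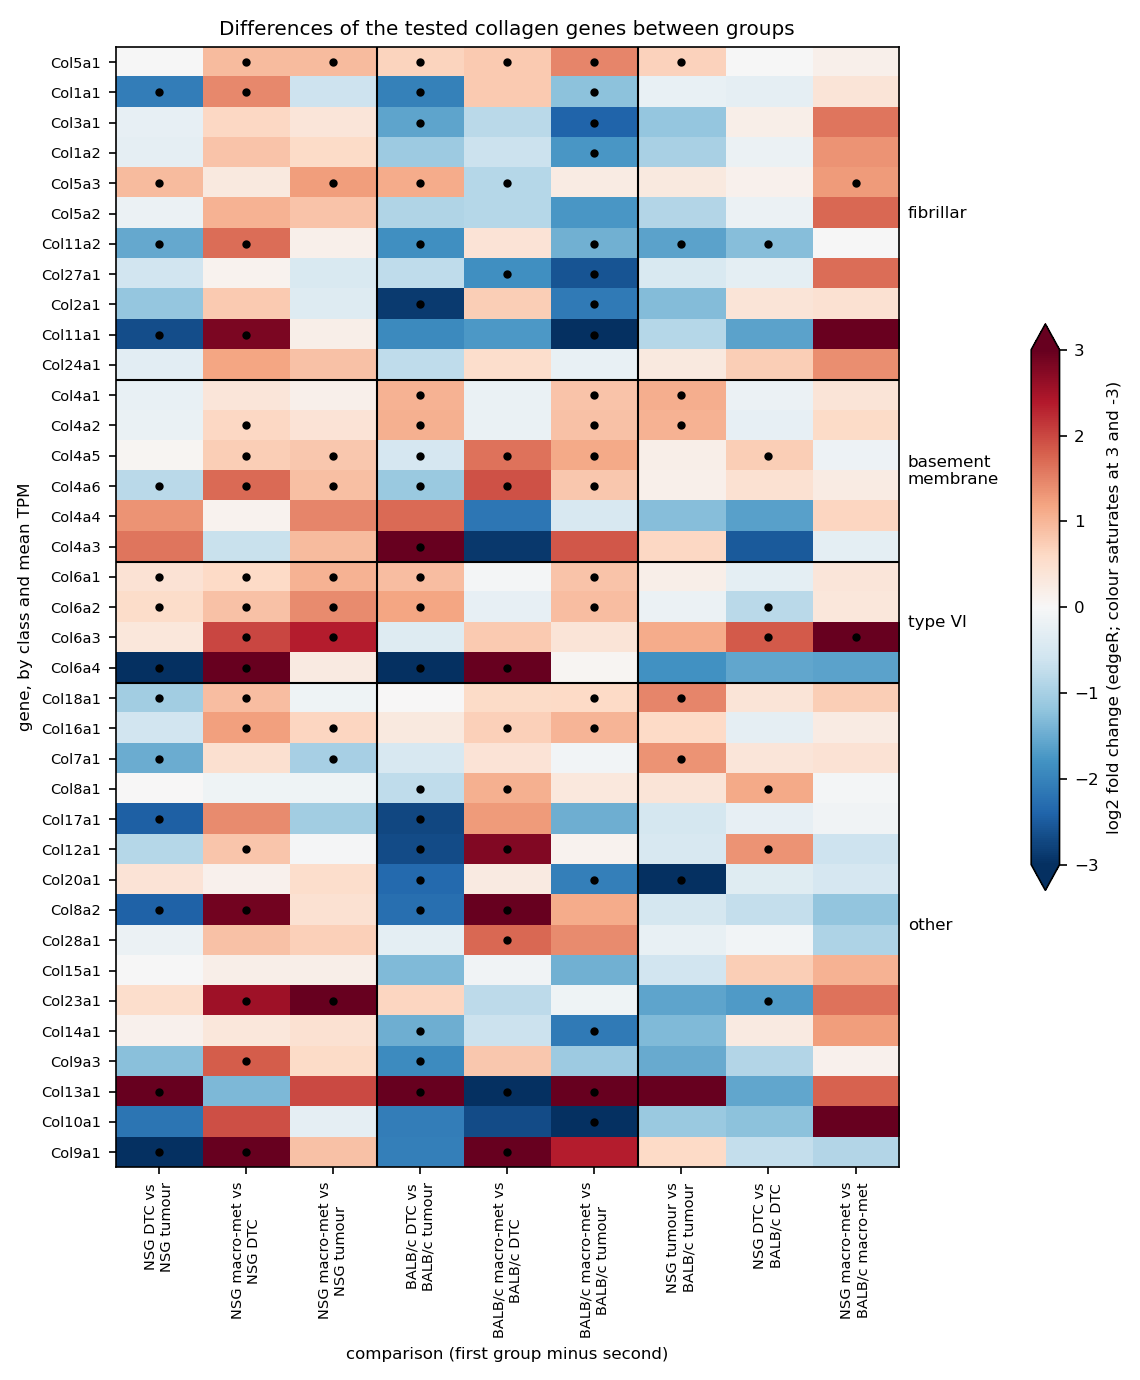
log2 fold changes of the 37 tested collagen genes (rows, grouped by class and ordered by mean TPM) in 9 comparisons (columns, first group minus second; red higher, blue lower, saturated at 3 and -3), with a dot where the adjusted p was under 0.05. Col6a1 and Col6a2 are red against tumours at both lung stages in both strains, Col4a1 and Col4a2 carry dots against tumours in BALB/c mice and none in NSG mice, and the fibrillar rows below Col5a1 are mostly blue in BALB/c macro-mets against tumours.

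Of the 6 type IV genes tested, 3 rose and 2 fell in BALB/c DTC and 4 rose in BALB/c macro-mets against tumours, and 2 rose in NSG macro-mets against tumours. Of all genes, 20.4% rose and 21.0% fell in this BALB/c DTC comparison, and 19.6% rose in BALB/c and 16.9% in NSG macro-mets. Col4a1 and Col4a2 were low in BALB/c tumours. Col4a1 stood at 158, 209, 176, 207 and 279 TPM in NSG tumours, 187, 303, 129, 235 and 176 in NSG DTC and 234, 213, 273, 267 and 199 in NSG macro-mets. It stood at 127, 79.9, 114, 81.6 and 77.2 TPM in BALB/c tumours, 169.8, 199, 168, 147 and 296 in BALB/c DTC and 169, 187, 194, 182 and 193 in BALB/c macro-mets. The 5 BALB/c tumours lay below every other library of the study, while the 3 NSG stages overlapped. Col4a1 rose in BALB/c DTC (1.05 ± 0.18, adjusted p = 4.33e-05) and BALB/c macro-mets (0.86 ± 0.18, adjusted p = 0.000556) against tumours. It was not called in NSG DTC (-0.22 ± 0.18, adjusted p = 0.415) or NSG macro-mets (0.15 ± 0.18, adjusted p = 0.58) against tumours. It was higher in NSG than in BALB/c tumours (1.09 ± 0.18, adjusted p = 6.17e-05), and the step to DTC differed between the strains (NSG change minus BALB/c change -1.27 ± 0.26, adjusted p = 0.000351).

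Col4a2 followed Col4a1. It stood at 112, 138, 116, 134 and 179 TPM in NSG tumours, 123, 203, 63.2, 163 and 132 in NSG DTC and 175, 165, 220.2, 230.4 and 148 in NSG macro-mets. It stood at 83.2, 51.1, 79.7, 61.4 and 51.4 TPM in BALB/c tumours, 124, 142, 117, 110.2 and 188 in BALB/c DTC and 109.5, 141, 138, 123 and 130 in BALB/c macro-mets. The BALB/c tumours again lay below the other BALB/c groups and the NSG tumours, and NSG DTC 3 was the only lung library within their range. Against BALB/c tumours its changes were 1.08 ± 0.21 for DTC and 0.89 ± 0.21 for macro-mets, and it gave 1.04 ± 0.21 in NSG against BALB/c tumours and -1.28 ± 0.29 for the difference between the strains in the step to DTC (largest adjusted p = 0.00145 of these 4). The ratio of Col4a1 to Col4a2 TPM stayed within 1.16 and 2.04 in all 30 libraries (median 1.44), while the ratio of Col1a1 to Col1a2, the chains of type I collagen, ran from 2.49 to 30.2. Through the 22 bases where the exons of both genes overlap, reads cannot be told apart if counting ignored strand.

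These 4 calls of each gene were kept without any 1 library, with offsets for GC content and length, without the 4 libraries poorest in genes and without the 2 lung-rich libraries. The sum of lung epithelium markers was 289.7 to 9973 TPM in BALB/c DTC and 54.7 to 126.7 TPM in BALB/c tumours. Col4a1 was 169.8 and 199 TPM in the 2 lung-rich libraries. It was 168, 147 and 296 TPM in the 3 BALB/c DTC libraries with 289.7 to 629.6 TPM of these markers, which is still above the tumours. The sum of 15 endothelial markers, a cell type that makes type IV collagen, was 131.8 to 559.9 TPM in BALB/c DTC and 107 to 140.3 TPM in BALB/c tumours. Eng made up most of the tumour sum, and markers with little RNA in tumours did not overlap: Cldn5 was 5.88 to 113.9 TPM in BALB/c DTC and 0 to 0.104 TPM in BALB/c tumours, and Cdh5 was 2.83 to 55.3 TPM in DTC and 0.154 to 1.04 TPM in tumours. Neither marker overlapped in NSG mice, where Col4a1 and Col4a2 were not called in DTC against tumours. Cldn5 was 4.62 to 16.1 TPM in NSG DTC and 0 to 0.322 TPM in NSG tumours, and Cdh5 was 6.10 to 11.05 and 0.0533 to 1.04 TPM. The part of lung epithelial or endothelial RNA in the BALB/c difference was not tested. In NSG macro-mets against NSG DTC Col4a2 rose (0.63 ± 0.21, adjusted p = 0.0151), a call that ended without NSG DTC 3 (0.44), NSG macro-met 3 (0.54) or NSG macro-met 4 (0.50).

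Col4a5 and Col4a6, a second type IV pair that lies head to head on the X chromosome with start sites 1343 bases apart, had their highest means in the macro-mets of both strains. Col4a5 stood at 20.2, 20.7, 20.4, 27.2 and 30.2 TPM in NSG tumours, 33.1, 39.4, 22.3, 29.9 and 20.4 in NSG DTC and 53.2, 47.8, 32.4, 41.1 and 42.2 in NSG macro-mets. It stood at 18.5, 27.9, 14.7, 14.6 and 30.2 TPM in BALB/c tumours, 12.6, 15.3, 15.8, 10.1 and 18.6 in BALB/c DTC and 40.9, 46.4, 46.2, 54.4 and 54 in BALB/c macro-mets. Every macro-met library lay above every tumour library, and in BALB/c mice above every DTC library. Col4a5 rose in macro-mets against DTC in NSG (0.74 ± 0.17, adjusted p = 0.000926) and BALB/c mice (1.63 ± 0.17, adjusted p = 3.82e-08). The rise was smaller in NSG mice (NSG change minus BALB/c change -0.89 ± 0.25, adjusted p = 0.00709), and that difference was not called with GC and length offsets (-0.49). Against tumours it also rose in NSG (0.80 ± 0.17) and BALB/c macro-mets (1.13 ± 0.17; largest adjusted p = 0.000866). The fall in BALB/c DTC against tumours (-0.50 ± 0.18, adjusted p = 0.0225) ended without BALB/c tumour 2 or 5, without BALB/c DTC 1 or 4 (-0.35 to -0.46) or without the 2 lung-rich libraries (-0.44).

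Col4a6 was about 10 to 54 times less abundant, at 2.94 ± 0.278 TPM (SD) in NSG macro-mets and 2.51 ± 0.251 TPM in BALB/c macro-mets. It rose in macro-mets against DTC by 1.70 ± 0.27 in NSG and 1.92 ± 0.27 in BALB/c mice (largest adjusted p = 6.05e-06), and it fell in BALB/c DTC against tumours (-1.11 ± 0.27, adjusted p = 0.00155). Col4a3 and Col4a4, whose chains build the type IV network of kidney and lung, stayed below 1.4 TPM in every library. Col4a4 was not called in any of the 9 comparisons of groups by edgeR's test, and Col4a3 is taken up with the libraries that stand apart.

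Type VI collagen is assembled from the chains of Col6a1, Col6a2 and usually Col6a3. By mean TPM over all libraries Col6a1 was the most abundant collagen gene, but Col18a1 was above it in every NSG tumour. Col6a1 stood at 371, 409, 364, 416 and 457 TPM in NSG tumours, 626, 747, 378, 784 and 659 in NSG DTC and 933, 924, 859, 804 and 806 in NSG macro-mets. It stood at 399, 323, 378, 260.5 and 418 TPM in BALB/c tumours, 437, 658, 624, 672 and 883 in BALB/c DTC and 562, 661, 770, 715 and 700.2 in BALB/c macro-mets. Macro-mets lay above tumours without overlap in both strains. Col6a1 rose in macro-mets against tumours in NSG (1.03 ± 0.15, adjusted p = 7.96e-06) and BALB/c mice (0.86 ± 0.15, adjusted p = 6.4e-05), and in BALB/c DTC against tumours (0.92 ± 0.15, adjusted p = 1.77e-05). With offsets for GC content the BALB/c macro-met change was 0.52 and still called. The sum of 15 fibroblast markers moved the same way in macro-mets against tumours. It was 729.8 to 836.1 TPM in NSG macro-mets and 393.2 to 448.8 TPM in NSG tumours. It was 577.5 to 700.3 TPM in BALB/c macro-mets and 399.7 to 529.3 TPM in BALB/c tumours. Of these markers 1, Tcf21, was at 0 counts in the tumours of both strains. Gsn, Dcn, Scara5 and Pdgfra carried most of the sum, and the markers did not all move alike: the median was higher in macro-mets than in tumours for 10 of 15 in NSG and 8 of 15 in BALB/c mice. Lum was lower, with a median of 0.422 TPM in NSG macro-mets and 1.18 TPM in NSG tumours, and 0.320 TPM in BALB/c macro-mets and 1.96 TPM in BALB/c tumours. The early lung stage of BALB/c mice, where Col6a1 also rose, was mixed. Fibroblast sums of DTC 3, 4 and 5 (403.7, 440.5 and 513.1 TPM) lay within the BALB/c tumour range. Those of lung-rich DTC 1 and 2 (1080 and 654.1 TPM) lay above it. Median Dcn was 6.12 TPM and median Pdgfra 12.45 TPM there, against 82.2 and 40.3 TPM in tumours. Median Gsn (339.9 against 278.2 TPM) and Scara5 (41.3 against 23.7 TPM) were higher. Sums of other lists were higher in macro-mets too. For 13 pericyte and smooth muscle markers the sum was 29.2 to 41.2 TPM in NSG macro-mets and 11.4 to 21.95 TPM in NSG tumours. In BALB/c mice it was 28.2 to 51.7 and 9.10 to 42.5 TPM, with overlap. Endothelial sums were 150.2 to 187.2 and 108.1 to 145.9 TPM in NSG, and 143.2 to 212.9 and 107.1 to 140.3 TPM in BALB/c mice. The part of fibroblast, pericyte or endothelial RNA in the macro-met rises of Col6a1, Col6a2, Col5a1 and Col16a1 was not tested. The same holds for the BALB/c DTC rise of Col6a1.

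Col6a2 stood at 71, 71.2, 63.5, 67 and 66.3 TPM in NSG tumours, 104, 126, 63.2, 157 and 125 in NSG DTC and 212, 224, 187, 172 and 165 in NSG macro-mets. It stood at 86.2, 79.9, 58.2, 49.4 and 113 TPM in BALB/c tumours, 109.5, 169.6, 166, 209 and 185 in BALB/c DTC and 147, 159.6, 164, 146 and 146 in BALB/c macro-mets. NSG macro-mets lay above both other NSG stages, and BALB/c DTC and macro-mets overlapped. Against tumours it rose in NSG macro-mets (1.43 ± 0.18, adjusted p = 1.46e-06), BALB/c DTC (1.17 ± 0.18, adjusted p = 9.26e-06) and BALB/c macro-mets (0.92 ± 0.18, adjusted p = 0.000275). From DTC to macro-met Col6a2 rose in NSG mice (0.89 ± 0.18) and was not called in BALB/c mice (-0.25 ± 0.18), a difference that was itself called (1.14 ± 0.26, adjusted p = 0.00143). Col6a2 was also lower in NSG than in BALB/c DTC (-0.80 ± 0.18, adjusted p = 0.000771). The ratio of Col6a1 to Col6a2 TPM stayed within 3.21 and 6.89.

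In NSG DTC against NSG tumours the calls of Col6a1 (0.44 ± 0.15, adjusted p = 0.0293) and Col6a2 (0.54 ± 0.18, adjusted p = 0.0284) were close to the threshold. NSG DTC 3 lay within or below the tumour range for both genes. Each call ended in 8 of the 10 omissions of 1 library, at 0.32 to 0.44 for Col6a1 (all but NSG tumour 5 and NSG DTC 3) and at 0.37 to 0.53 for Col6a2 (all but NSG tumour 1 and NSG DTC 3), and without the 4 libraries poorest in genes. In NSG macro-mets against NSG DTC Col6a1 rose (0.59 ± 0.15, adjusted p = 0.00198) and was not called with GC and length offsets (0.21). The difference between the strains in that step (0.65 ± 0.21, adjusted p = 0.0229) ended without BALB/c DTC 4 or 5, NSG DTC 3, BALB/c macro-met 1 or NSG macro-met 1 or 4 (0.48 to 0.62).

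Col6a3, whose long chain carries many von Willebrand factor type A domains, was far less abundant and had the larger of the 2 strain differences called in macro-mets. It stood at 1.37, 4.77, 3.75, 2.3 and 4.98 TPM in NSG tumours, 3.33, 6.62, 4.34, 5.92 and 4.82 in NSG DTC and 18, 18.7, 29.3, 14.8 and 10.1 in NSG macro-mets. It stood at 0.64, 0.638, 0.714, 4.74 and 0.834 TPM in BALB/c tumours, 1.94, 1.49, 0.593, 0.796 and 1.12 in BALB/c DTC and 1.8, 1.9, 3.26, 2.06 and 1.9 in BALB/c macro-mets. NSG and BALB/c libraries did not overlap in DTC or macro-mets, and in tumours only BALB/c tumour 4 reached the NSG values. Col6a3 was higher in NSG than in BALB/c macro-mets (3.07 ± 0.46, adjusted p = 0.000261) and DTC (1.84 ± 0.47, adjusted p = 0.00281), and not called in tumours (1.10 ± 0.46, adjusted p = 0.089). It rose in NSG macro-mets against NSG DTC (2.01 ± 0.46, adjusted p = 0.000932) and against NSG tumours (2.35 ± 0.46, adjusted p = 0.000508). In BALB/c macro-mets it was not called against DTC (0.78 ± 0.47, adjusted p = 0.224) or tumours (0.38 ± 0.46, adjusted p = 0.544), and the strain difference in the step from DTC to macro-met missed the threshold (1.24 ± 0.65, adjusted p = 0.166). The results against BALB/c tumours and between tumours include BALB/c tumour 4. Apart from that library, BALB/c tumours (0.638 to 0.834 TPM) lay below every BALB/c macro-met and every NSG tumour. The calls in NSG against BALB/c macro-mets and DTC, and in NSG macro-mets against both other NSG stages, were kept in every omission of 1 library. In BALB/c DTC against tumours the sign turned: the change was -0.39 ± 0.47, adjusted p = 0.523, and 0.82 (adjusted p = 0.0313) without the 4 libraries poorest in genes. The sum of 15 fibroblast markers, a cell type that makes Col6a3, was higher in NSG than in BALB/c macro-mets without overlap (ranges above), with no marker of the 15 at 0 counts in either group. The median was higher in NSG for 12 of the 15, among them Gsn (392.7 and 307.9 TPM) and Scara5 (118.2 and 77.5 TPM), and lower for Dcn (109 and 147.1 TPM), Inmt and Tcf21. Gsn carried much of the sum and was 213 to 465 TPM over all 30 libraries. Lum, Thy1, Fap and Cd248 had medians of at most 0.496 TPM in both macro-met groups. The part of fibroblast RNA in the Col6a3 difference was not tested.

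**Figure D3:**
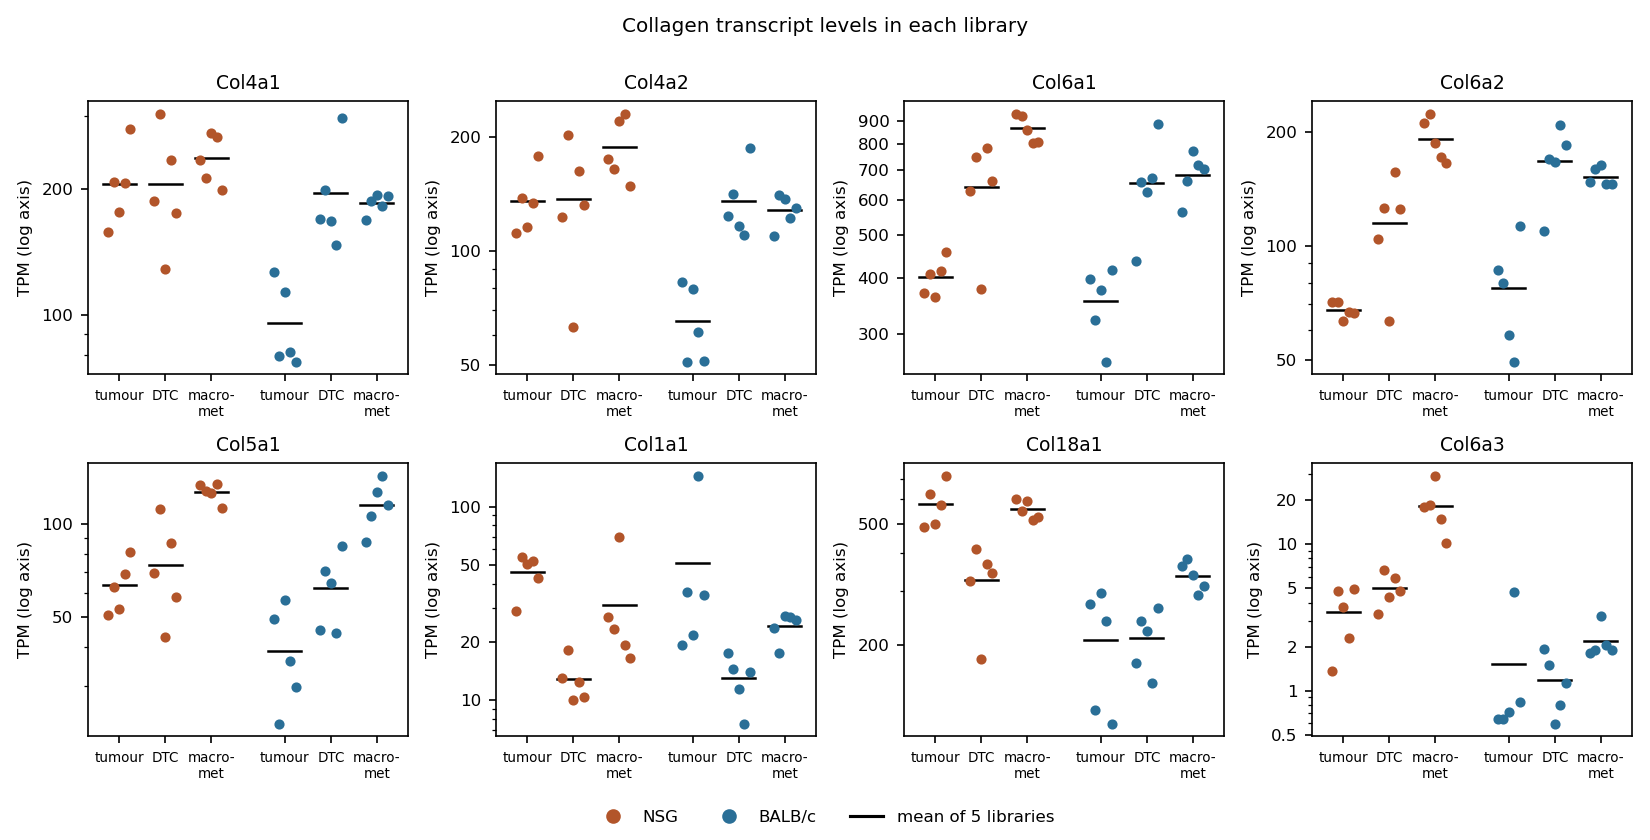
TPM (log axis) of 8 collagen genes in each library, by stage within NSG (left, brown) and BALB/c mice (right, blue), with a line at the mean of the 5 libraries of each group. BALB/c tumours are the lowest group for Col4a1 and Col4a2, Col5a1 is highest in macro-mets, Col1a1 is lowest in DTC, and Col6a3 is higher in NSG than in BALB/c macro-mets without overlap.

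Among fibrillar collagens Col5a1, a chain of type V collagen that sits inside type I fibrils and limits their width, was the most abundant and was highest in the macro-mets of both hosts. It stood at 50.8, 62.7, 53.3, 69.2 and 81.2 TPM in NSG tumours, 69.3, 112, 43.2, 86.8 and 58.3 in NSG DTC and 134, 127, 125, 134 and 112 in NSG macro-mets. It stood at 49.5, 22.7, 56.8, 36.1 and 29.8 TPM in BALB/c tumours, 45.4, 70.3, 64.6, 44.6 and 84.9 in BALB/c DTC and 87.6, 106, 126, 143 and 115 in BALB/c macro-mets. Macro-mets lay above the other stages in both strains, and tumours and DTC overlapped. Col5a1 rose in macro-mets against tumours in NSG (0.94 ± 0.22, adjusted p = 0.00203) and BALB/c mice (1.46 ± 0.22, adjusted p = 1.49e-05), and against DTC in NSG (0.94 ± 0.22, adjusted p = 0.000927) and BALB/c mice (0.78 ± 0.22, adjusted p = 0.00786). The last call ended without the 2 lung-rich libraries (0.69, adjusted p = 0.065). The rise in BALB/c DTC against tumours (0.68 ± 0.22, adjusted p = 0.0153) ended without BALB/c tumour 2 or 5 or BALB/c DTC 5 (0.50 to 0.59), and the higher level in NSG than in BALB/c tumours (0.68 ± 0.22, adjusted p = 0.0257) without BALB/c tumour 2, 4 or 5 or NSG tumour 4 or 5 (0.52 to 0.67).

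The other type V gene called, Col5a3, was near 1.5 TPM on average. It rose in DTC against tumours in NSG (0.95 ± 0.30, adjusted p = 0.0176) and BALB/c mice (1.12 ± 0.30, adjusted p = 0.00349) and in NSG macro-mets against tumours (1.25 ± 0.30, adjusted p = 0.00201), and it was higher in NSG than in BALB/c macro-mets (1.29 ± 0.30, adjusted p = 0.0115). The NSG DTC call ended without NSG tumour 5 or NSG DTC 4 or 5 (0.75 to 0.85), the last one without BALB/c macro-met 1 or 2 (1.17 and 1.14). In BALB/c macro-mets Col5a3 fell against DTC (-0.86 ± 0.30, adjusted p = 0.0268), a call that ended without BALB/c DTC 3 or 5 or BALB/c macro-met 1, 2 or 5 (-0.73 to -0.82).

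Col1a1 was low in DTC of both strains, and Col1a1, Col1a2 and Col3a1 were all lower in BALB/c macro-mets than in BALB/c tumours. Col1a1, the main chain of type I collagen, stood at 28.7, 54.9, 50.3, 52.3 and 42.5 TPM in NSG tumours, 13, 18.1, 9.97, 12.3 and 10.3 in NSG DTC and 26.8, 23.2, 69.7, 19.3 and 16.5 in NSG macro-mets. It stood at 19.2, 36.2, 21.7, 144 and 35 TPM in BALB/c tumours, 17.4, 14.5, 11.4, 7.5 and 13.8 in BALB/c DTC and 23.5, 17.4, 27.1, 26.8 and 25.8 in BALB/c macro-mets. DTC lay below tumours without overlap in both strains, and BALB/c tumour 4 and NSG macro-met 3 lay far above their groups. Col1a1 fell in DTC against tumours in NSG (-2.07 ± 0.42, adjusted p = 0.00089) and BALB/c mice (-2.02 ± 0.42, adjusted p = 0.000521). Without BALB/c tumour 4 the BALB/c fall was -1.09 and still called (adjusted p = 0.00471). The rise in NSG macro-mets against DTC (1.44 ± 0.42, adjusted p = 0.0073) ended without NSG macro-met 3 (0.89). The fall in BALB/c macro-mets against tumours (-1.23 ± 0.42, adjusted p = 0.024) shrank to -0.28 without BALB/c tumour 4 and was no longer called, nor was it without BALB/c macro-met 2 (-1.15). Between NSG and BALB/c tumours Col1a1 was not called (-0.22 ± 0.42, adjusted p = 0.741), and without the 4 libraries poorest in genes it was higher in NSG tumours (0.63, adjusted p = 0.049).

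Col1a2, the other type I chain, stood at 2.23, 4.79, 6.27, 2.11 and 1.41 TPM in NSG tumours, 2.86, 4.45, 2.53, 3.11 and 3.35 in NSG DTC and 4.39, 4.07, 12.6, 3.33 and 2.15 in NSG macro-mets. It stood at 1.98, 1.53, 4.58, 18.8 and 5.05 TPM in BALB/c tumours, 6.99, 3.01, 1.53, 1.75 and 2.3 in BALB/c DTC and 0.84, 0.991, 3.17, 2.43 and 3.3 in BALB/c macro-mets. All 6 groups overlapped, and the highest library was again BALB/c tumour 4. Its only call was the fall in BALB/c macro-mets against tumours (-1.74 ± 0.59, adjusted p = 0.0246), which ended without BALB/c tumour 4 (-0.73) or BALB/c macro-met 1 or 2 (-1.55 and -1.58). In DTC against tumours, where Col1a1 fell, Col1a2 was not called (-0.28 ± 0.59, adjusted p = 0.783, in NSG and -1.09 ± 0.59, adjusted p = 0.143, in BALB/c mice), and the Col1a1 to Col1a2 ratio ranged from 3.09 to 4.55 in NSG DTC, against 8.02 to 30.2 in NSG tumours.

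Col3a1, the single chain of type III collagen, stood at 4.29, 7.63, 9.8, 5.42 and 3.23 TPM in NSG tumours, 6.25, 8.83, 4.57, 5.17 and 5.25 in NSG DTC and 4.48, 8.09, 18.2, 6.14 and 4.52 in NSG macro-mets. It stood at 4.22, 2.79, 13, 31.6 and 13.9 TPM in BALB/c tumours, 8.92, 5.25, 2.72, 2.45 and 3.26 in BALB/c DTC and 1.17, 1.21, 4.39, 2.93 and 4.2 in BALB/c macro-mets. The NSG stages overlapped, and BALB/c macro-mets were low in replicates 1 and 2. Col3a1 fell in BALB/c macro-mets against tumours (-2.40 ± 0.53, adjusted p = 0.00132; without BALB/c tumour 4 -1.73, adjusted p = 0.0087). The fall in BALB/c DTC against tumours (-1.58 ± 0.53, adjusted p = 0.0202) ended without that library (-0.94). The strain difference in the step from tumour to macro-met (2.77 ± 0.74, adjusted p = 0.0293) ended without any of 7 libraries (BALB/c tumour 4, NSG tumour 1, 4 or 5, BALB/c macro-met 1 or 2 or NSG macro-met 3; 2.08 to 2.71). Exons of other annotated genes overlap 141 bases of Col3a1 and 212 bases of Col5a1, and reads there cannot be assigned from these counts.

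The cartilage-type fibrillar genes were faint. Col11a2, a chain of type XI collagen, averaged 0.861 TPM over all libraries and fell in DTC against tumours in NSG (-1.53 ± 0.44, adjusted p = 0.0117) and BALB/c mice (-1.85 ± 0.43, adjusted p = 0.00132). It was lower in NSG than in BALB/c tumours (-1.61 ± 0.43, adjusted p = 0.00767), and in NSG macro-mets it rose against DTC (1.69 ± 0.44, adjusted p = 0.00277). The type XXVII gene Col27a1 fell in BALB/c macro-mets against tumours (-2.60 ± 0.56, adjusted p = 0.000998) and against DTC (-1.84 ± 0.57, adjusted p = 0.0154), the first of which ended without BALB/c tumour 4 (-0.996). Col11a1, the partner chain of Col11a2, fell in NSG DTC (-2.66 ± 0.95) and BALB/c macro-mets (-3.63 ± 0.96) against tumours and rose in NSG macro-mets against DTC (2.83 ± 0.95), and Col2a1, the type II gene of cartilage, fell in BALB/c DTC (-2.86 ± 0.82) and BALB/c macro-mets (-2.13 ± 0.80) against tumours (largest adjusted p of the 5 = 0.046). Of these 5 calls, those of BALB/c mice ended without BALB/c tumour 4 (Col11a1 -2.03, Col2a1 -1.65 and -0.92), where both genes were highest, and Col2a1 in BALB/c macro-mets also without BALB/c macro-met 1, 2, 4 or 5. The rise of Col11a1 ended without NSG macro-met 3 (0.68), and its fall in NSG DTC ended in 7 of the 10 omissions of 1 library (-2.86 to -2.09; all but NSG tumour 1, 4 and 5). Col5a2 and Col24a1 were not called in the 9 comparisons of groups by edgeR's test.

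Of the other collagens Col18a1, a basement membrane zone collagen whose end fragment is endostatin, was the most abundant. It stood at 489, 624, 498, 577 and 717 TPM in NSG tumours, 324, 412, 180, 367 and 345 in NSG DTC and 600.1, 550.3, 591, 515 and 527 in NSG macro-mets. It stood at 272, 123, 295, 239.6 and 110.1 TPM in BALB/c tumours, 175, 239, 222, 150.5 and 264 in BALB/c DTC and 362, 382, 338, 291 and 311 in BALB/c macro-mets. NSG DTC lay below both other NSG stages, and the NSG tumours and macro-mets lay above those of BALB/c mice, without overlap. Col18a1 fell in NSG DTC against tumours (-1.05 ± 0.23, adjusted p = 0.00113) and rose in NSG macro-mets against DTC (0.93 ± 0.23, adjusted p = 0.00143). In BALB/c DTC against tumours it was not called (0.02 ± 0.23, adjusted p = 0.956), and the strains differed in this step (-1.07 ± 0.32, adjusted p = 0.0104). It was higher in NSG than in BALB/c tumours (1.45 ± 0.23, adjusted p = 2.87e-05) and not called in macro-mets (0.73 ± 0.23, adjusted p = 0.0845). The rise in BALB/c macro-mets against tumours (0.60 ± 0.23, adjusted p = 0.0375) ended without BALB/c tumour 2 or 5 or BALB/c macro-met 1, 2, 3 or 5 (0.44 to 0.62).

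Col7a1, which forms the anchoring fibrils that tie basement membranes to the stroma, stood at 82.4, 94.2, 79.2, 97.5 and 131 TPM in NSG tumours, 43.4, 61.1, 19.7, 43 and 35.9 in NSG DTC and 57.8, 51, 46.6, 48.3 and 48.5 in NSG macro-mets. It stood at 50.4, 29.7, 46.5, 37.7 and 23.7 TPM in BALB/c tumours, 22.1, 29.5, 24.4, 24.3 and 32.5 in BALB/c DTC and 30.7, 39.7, 38.8, 44.6 and 36.2 in BALB/c macro-mets. The 5 NSG tumours lay above every other library, and the BALB/c stages overlapped. Col7a1 fell in NSG DTC (-1.48 ± 0.20, adjusted p = 5.83e-06) and NSG macro-mets (-1.003 ± 0.20, adjusted p = 0.000365) against tumours, and in BALB/c DTC it just missed the threshold (-0.48 ± 0.20, adjusted p = 0.0502). It was higher in NSG than in BALB/c tumours (1.35 ± 0.20, adjusted p = 1.06e-05), and the step to DTC differed between the strains (-0.99 ± 0.28, adjusted p = 0.00656). These 4 calls were kept in every omission of 1 library.

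Col17a1, the transmembrane collagen of hemidesmosomes, was low in DTC of both strains. It stood at 3.85, 12.5, 11.7, 7.59 and 6.63 TPM in NSG tumours, 1.5, 2.01, 2.15, 1.67 and 1.59 in NSG DTC and 2.07, 2.1, 14.7, 1.27 and 1.46 in NSG macro-mets. It stood at 4.17, 8.25, 2.25, 39 and 4.63 TPM in BALB/c tumours, 1.66, 2.22, 1.54, 1.4 and 2.12 in BALB/c DTC and 4.32, 6.08, 2.39, 4.06 and 6.41 in BALB/c macro-mets. DTC lay below tumours without overlap in both strains, and BALB/c tumour 4 and NSG macro-met 3 stood apart as for Col1a1. Col17a1 fell in DTC against tumours in NSG (-2.46 ± 0.63, adjusted p = 0.00647) and BALB/c mice (-2.74 ± 0.63, adjusted p = 0.00159; without BALB/c tumour 4 -1.38, adjusted p = 0.0333).

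Col16a1, a fibril-associated collagen with interrupted helices, was highest in macro-mets. It stood at 62.4, 66.5, 66, 69.96 and 94.1 TPM in NSG tumours, 60.3, 88.7, 19.5, 67 and 48.4 in NSG DTC and 126, 114, 122, 113 and 115 in NSG macro-mets. It stood at 61.1, 28.9, 66.2, 48.6 and 29.5 TPM in BALB/c tumours, 44.3, 61.2, 61.4, 44.8 and 72.6 in BALB/c DTC and 90.9, 107, 108, 95.4 and 104 in BALB/c macro-mets. Macro-mets lay above both other stages without overlap in both strains. It rose in NSG macro-mets against DTC (1.22 ± 0.25, adjusted p = 0.000262) and in BALB/c macro-mets against tumours (1.01 ± 0.25, adjusted p = 0.00262). The call in NSG macro-mets against tumours (0.65 ± 0.25, adjusted p = 0.0499) ended in all 10 omissions of 1 library (0.58 to 0.71), and that in BALB/c macro-mets against DTC (0.72 ± 0.25, adjusted p = 0.0295) without BALB/c DTC 1 or 4 or BALB/c macro-met 2, 3 or 5 (0.64 to 0.72) or without the 2 lung-rich libraries (0.62).

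Col8a1, a short-chain network collagen, stood at 49.3, 45.4, 36.4, 54.2 and 66.1 TPM in NSG tumours, 45.3, 73.5, 62.3, 63.8 and 48.5 in NSG DTC and 49.3, 52.1, 44.9, 39.9 and 55.6 in NSG macro-mets. It stood at 45.6, 34, 44.1, 37.6 and 29.96 TPM in BALB/c tumours, 24.9, 28.9, 25.7, 17.9 and 14.7 in BALB/c DTC and 42.7, 41.7, 58.4, 61.5 and 50.1 in BALB/c macro-mets. BALB/c DTC lay below all other groups without overlap, and the NSG stages overlapped. Col8a1 fell in BALB/c DTC against tumours (-0.75 ± 0.16, adjusted p = 0.000416), rose in BALB/c macro-mets against DTC (1.07 ± 0.16, adjusted p = 7.26e-06) and was higher in NSG than in BALB/c DTC (1.14 ± 0.16, adjusted p = 2.53e-06). The strains differed in the step from tumour to DTC (0.76 ± 0.23, adjusted p = 0.0101) and from DTC to macro-met (-1.20 ± 0.23, adjusted p = 0.000306). The first of these differences was not called with GC and length offsets (0.25) or without the 4 libraries poorest in genes (0.45), and with the offsets the second was -0.61 (adjusted p = 0.0241).

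Col12a1, a fibril-associated collagen that decorates type I fibres, was low in BALB/c DTC. It stood at 1.19, 1.91, 0.86, 1.78 and 1.6 TPM in NSG tumours, 0.605, 1.32, 0.956, 0.986 and 0.838 in NSG DTC and 1.53, 1.28, 1.43, 1.26 and 1.97 in NSG macro-mets. It stood at 0.944, 1.45, 1.44, 3.36 and 2.88 TPM in BALB/c tumours, 0.38, 0.598, 0.249, 0.219 and 0.135 in BALB/c DTC and 1.19, 1.56, 2.82, 2.88 and 3.31 in BALB/c macro-mets. BALB/c DTC lay below every other library of the study, with the highest of them (0.598 TPM) just under NSG DTC 1 (0.605 TPM). Col12a1 fell in BALB/c DTC against tumours (-2.68 ± 0.34, adjusted p = 7.02e-07) and rose in BALB/c macro-mets against DTC (2.78 ± 0.34, adjusted p = 6.17e-07). In NSG macro-mets it rose against DTC (0.82 ± 0.33, adjusted p = 0.0456), a call that ended in 8 of the 10 omissions of 1 library (0.70 to 0.86; all but NSG DTC 2 and NSG macro-met 2). It was higher in NSG than in BALB/c DTC (1.34 ± 0.34, adjusted p = 0.00239), and the strains differed in both steps (1.82 ± 0.47 to DTC and -1.96 ± 0.47 to macro-met, largest adjusted p = 0.00358). With GC and length offsets these 3 strain differences were 0.45, 0.80 and -1.05 and were not called. Without the 2 lung-rich libraries they were 1.94, 2.42 and -2.59 and were called. Across genes, the rank correlation between GC content and the deviation of a library from the average library ran from -0.713 to 0.55. It followed the groups, at -0.713 to -0.373 in NSG DTC, -0.129 to 0.55 in BALB/c DTC and 0.193 to 0.481 in NSG macro-mets. NSG DTC thus differed in this trend from both groups it is compared with here, without overlap.

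Several rarer members changed by more. Col8a2, the partner chain of Col8a1, fell in DTC against tumours in NSG (-2.42 ± 0.61, adjusted p = 0.00478) and BALB/c mice (-2.25 ± 0.60, adjusted p = 0.00436), and rose in macro-mets against DTC in NSG (2.89 ± 0.61, adjusted p = 0.000417) and BALB/c mice (3.36 ± 0.60, adjusted p = 0.000163), on levels of at most 4.27 TPM. Col23a1, a transmembrane collagen, rose in NSG macro-mets to 1.39, 1.54, 1.71, 0.804 and 1.35 TPM, against 0.395, 0.228, 0.208, 0.182 and 0.271 in NSG DTC and 0.214, 0.206, 0.0779, 0.132 and 0.146 in NSG tumours (2.54 ± 0.60, adjusted p = 0.00151, and 3.06 ± 0.61, adjusted p = 0.000689). NSG macro-mets did not overlap the other NSG stages, and the step from DTC to macro-met differed from that in BALB/c mice (3.31 ± 0.85, adjusted p = 0.00469). Its lower level in NSG than in BALB/c DTC (-1.69 ± 0.61, adjusted p = 0.0295) ended without BALB/c DTC 1 or 2 or NSG DTC 2, 3 or 4 (-1.21 to -1.63), and without both lung-rich libraries (-0.76). Col20a1 fell in BALB/c DTC (-2.33 ± 0.37, adjusted p = 1.58e-05) and BALB/c macro-mets (-2.05 ± 0.36, adjusted p = 0.000104) against tumours and was lower in NSG than in BALB/c tumours (-3.09 ± 0.37, adjusted p = 8.88e-07). The steps from tumour to DTC (2.73 ± 0.53, adjusted p = 0.0002) and to macro-met (2.58 ± 0.52, adjusted p = 0.00338) differed between the strains. Col14a1, another fibril-associated collagen, fell in BALB/c macro-mets against tumours (-2.12 ± 0.56, adjusted p = 0.00483). Col9a1, a type IX chain, fell in NSG DTC against tumours (-3.38 ± 1.25) and rose in macro-mets against DTC in NSG (4.26 ± 1.24) and BALB/c mice (4.41 ± 1.16). Col9a3 fell in BALB/c DTC against tumours (-1.89 ± 0.59) and rose in NSG macro-mets against DTC (1.81 ± 0.61). Col10a1, the collagen of hypertrophic cartilage, fell in BALB/c macro-mets against tumours (-4.77 ± 1.70), and Col28a1 rose in BALB/c macro-mets against DTC (1.72 ± 0.65; largest adjusted p of these 7 changes = 0.0491). The counts were few: summed over 5 libraries, Col9a1 had 5 in NSG DTC and 6 in BALB/c DTC, and Col10a1 had 4 in BALB/c macro-mets. The 2 macro-met rises of Col9a1 were kept in every omission of 1 library, as was the BALB/c fall of Col9a3, which was not called without the 2 lung-rich libraries (-1.66). Calls ended for Col9a1 in NSG DTC in 6 of 10 omissions (-3.41 to -2.87; all but NSG tumour 2, 4 and 5 and NSG DTC 2), for Col9a3 in NSG macro-mets without NSG macro-met 4 (1.53) or with the offsets (1.19), for Col10a1 without BALB/c tumour 4 or BALB/c macro-met 1 or 5 (-4.51 to -2.39), and for Col28a1 in 8 of 10 (1.42 to 1.85; all but BALB/c DTC 3 and BALB/c macro-met 3) and without the 2 lung-rich libraries (1.57). Col15a1 was not called in the 9 comparisons by edgeR's test.

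Over all members, the step from tumour to DTC differed between the strains for 8 members (3 higher and 5 lower in NSG relative to BALB/c, beside 18.4% and 15.0% of all genes). The step from DTC to macro-met differed for 9 (6 higher and 3 lower, beside 11.6% and 16.6%), and the step from tumour to macro-met for 4 (3 higher and 1 lower, beside 1.70% and 3.53%). The member medians were 0.12, 0.65 and 0.51, beside 0.05, 0.03 and 0.06 over all genes. The first of these counts was below the share of all genes, the second near it, and the third rests on 4 members.

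The faint genes Col13a1, Col4a3 and Col6a4 fall outside the rule for named genes and were picked after their values were seen. Col13a1, a transmembrane collagen, had 417 counts in BALB/c DTC and 1 count in BALB/c tumours, a ratio of 524 (95% interval 93.5 to 20730.5, counting error only). It stood at 4.15, 1.22, 0.296, 0.133 and 0.203 TPM in BALB/c DTC and 0.374, 0.805, 0.113, 0.609 and 0.497 TPM in NSG DTC. The highest pair was BALB/c DTC 1 and 2, the libraries richest in lung epithelium markers. Without them the rise in BALB/c DTC against tumours was 5.94 and still called, and the fall in BALB/c macro-mets against DTC was -2.23 and no longer called (with them 8.37 and -4.68). Col4a3 stood at 1.39, 0.557, 0, 0.116 and 0.0045 TPM in BALB/c DTC, again highest in replicates 1 and 2, and its rise against tumours (4.75 ± 1.22, adjusted p = 0.00474) was 1.46 and not called without them. In these 2 libraries the endothelial sum was 560 and 305 TPM, against 107 to 213 TPM in the other 28 libraries. The sum of 15 leukocyte markers was 1601 and 604.5 TPM, against 13.1 to 267.3 TPM in the other 28. Lyz2 made up most of both sums (1272 and 456.9 TPM). S100a9 was also high (156.9 and 87.2 TPM), while Ptprc, the gene of CD45, was 0.563 and 0.0914 TPM and reached 0.875 TPM in a BALB/c tumour. Of the fibroblast markers, Inmt was high (374.3 and 146.4 TPM) and Dcn was not (8.34 and 7.93 TPM). The part of lung epithelial, endothelial, leukocyte or fibroblast RNA was not tested. Col6a4 had 26 counts in NSG tumours, 0 in NSG DTC and 29 in NSG macro-mets, so it was at least 9.71-fold lower in NSG DTC than in tumours and at least 10.5-fold higher in NSG macro-mets than in DTC (floor of 3 counts over the group). In BALB/c DTC it had 1 count, against 97 in BALB/c tumours.

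**Figure D4:**
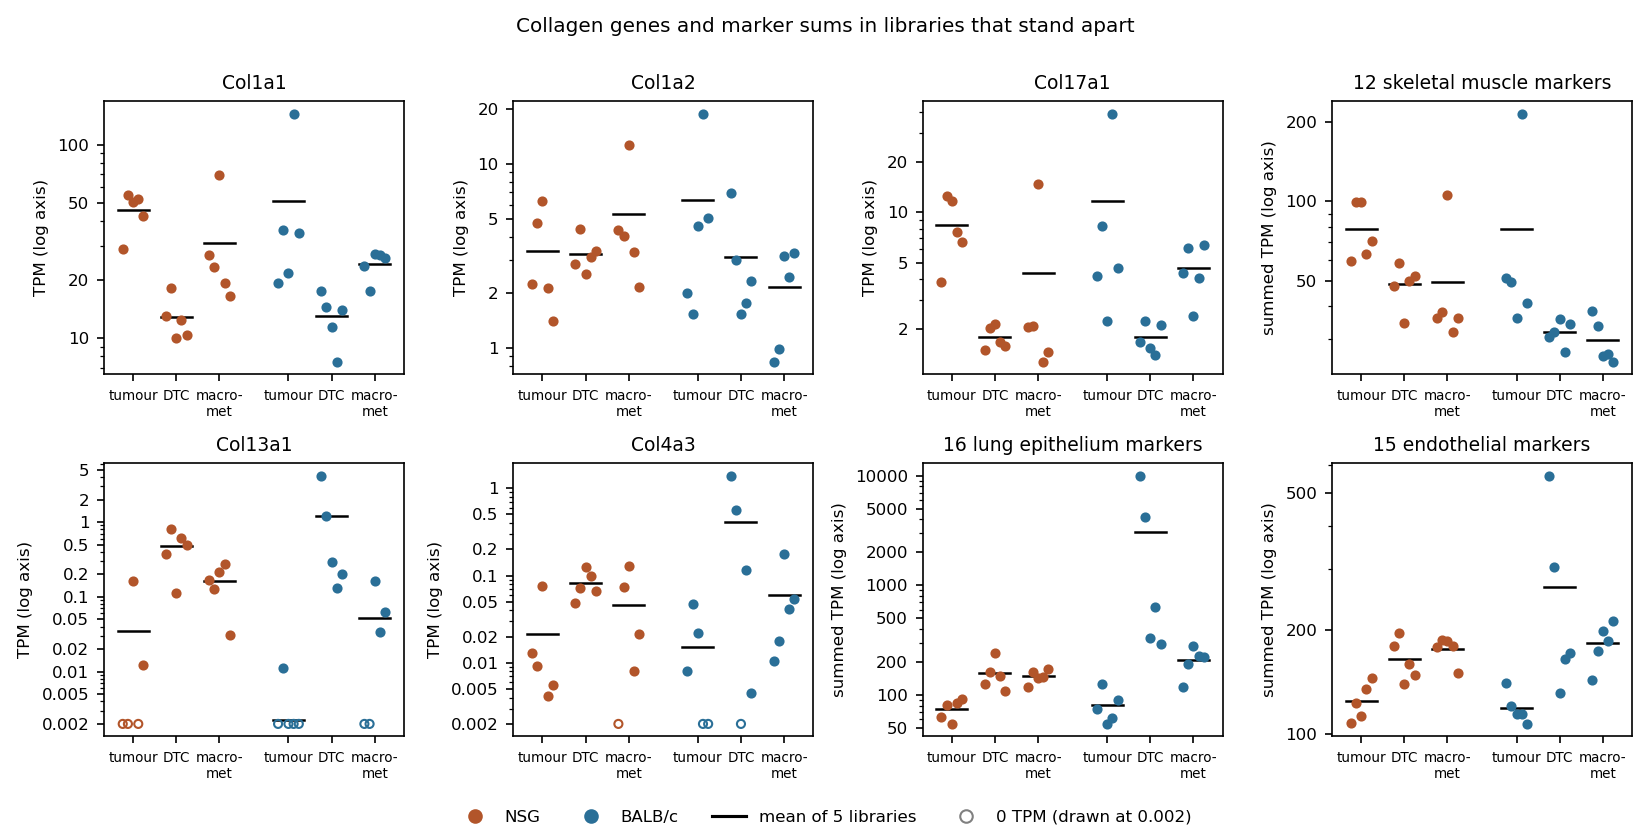
TPM (log axis) of 5 collagen genes and summed TPM of skeletal muscle, lung epithelium and endothelial markers in each library, by stage within NSG (left, brown) and BALB/c mice (right, blue), with a line at the mean of 5 libraries and open circles for 0 TPM. BALB/c tumour 4 and NSG macro-met 3 are highest in their groups for Col1a1, Col1a2, Col17a1 and the muscle sum, and BALB/c DTC 1 and 2 for Col13a1, Col4a3 and the lung and endothelial sums.

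The muscle marker sum was high in the libraries where the type I genes stood apart: it was 215 TPM in BALB/c tumour 4, where Col1a1 was 144 TPM, and 36.2 to 51.5 TPM in the other 4 BALB/c tumours, where Col1a1 was 19.2 to 36.2 TPM. In NSG macro-met 3 the sum was 106 TPM and Col1a1 69.7 TPM, against 32.0 to 38.0 TPM and 16.5 to 26.8 TPM in the other 4 NSG macro-mets. Some markers of other cell types stood apart in the same pair. In BALB/c tumour 4 the fibroblast markers Lum and Thy1 were 16.5 and 7.56 TPM (at most 2.34 and 1.54 TPM in the other 4), the cartilage marker Acan was 5.41 TPM (at most 0.369) and the pericyte marker Rgs5 6.29 TPM (at most 0.477). In NSG macro-met 3 Lum was 5.28 TPM (at most 0.475 in the other 4), Acan 2.74 TPM (at most 0.172) and Rgs5 2.86 TPM (at most 0.205). Other markers of these lists went the other way. Pdgfra (22.46 TPM) and Scara5 (8.48 TPM) were lowest of their group in BALB/c tumour 4, as were Acta2 (0.843 TPM) and Cnn1 (0.0499 TPM) in NSG macro-met 3. The sum of 10 adipocyte markers was 17.2 TPM in BALB/c tumour 4 (at most 2.73 in the other 4) and 9.28 TPM in NSG macro-met 3 (at most 2.43). In NSG tumours 2 and 3, whose muscle sums were 99.5 and 99.8 TPM, Col1a1 was 54.9 and 50.3 TPM, against 28.7 to 52.3 TPM in the other 3. None of the 12 muscle markers was at 0 counts in BALB/c tumours and 1 was in NSG macro-mets. The part of muscle, fibroblast, cartilage, pericyte or adipocyte RNA in the fibrillar values was not tested.

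Genes that modify and secrete collagen were counted from fixed lists. Of 24 genes for hydroxylation, folding and export, 5 rose and 10 fell in NSG DTC against tumours and 7 rose and 6 fell in BALB/c DTC against tumours (medians -0.27 and -0.07). Of all genes 16.0% rose and 9.55% fell in this NSG comparison and 20.4% and 21.0% in this BALB/c comparison (medians 0.06 and -0.09). In macro-mets against DTC 10 rose and 4 fell in NSG and 11 rose and 4 fell in BALB/c mice (medians 0.27 and 0.28), beside 21.3% and 22.4% of all genes in NSG and 16.6% and 14.2% in BALB/c mice (medians 0.02 and -0.04). The prolyl 4-hydroxylase subunits P4ha1 and P4ha2, which hydroxylate proline so that the triple helix is stable, fell in DTC against tumours in NSG (-1.82 ± 0.19 and -1.73 ± 0.21) and BALB/c mice (-1.91 ± 0.19 and -1.76 ± 0.21). They rose in macro-mets against DTC by 1.64 ± 0.19 and 2.48 ± 0.21 in NSG and 1.47 ± 0.19 and 2.46 ± 0.21 in BALB/c mice (largest adjusted p of the 8 = 2.13e-06). Mia3, the TANGO1 receptor that loads procollagen for export, rose in NSG DTC against tumours (1.22 ± 0.26, adjusted p = 0.000979) and was higher in NSG than in BALB/c DTC (1.60 ± 0.26, adjusted p = 2.08e-05), while the collagen chaperone Serpinh1 was lower in NSG than in BALB/c DTC (-0.70 ± 0.13, adjusted p = 9.1e-05).

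Of 11 tested genes for procollagen cleavage and cross-linking, 1 rose and 3 fell in NSG DTC and 3 rose and 2 fell in BALB/c DTC against tumours (all genes 16.0% and 9.55% in NSG, 20.4% and 21.0% in BALB/c mice). In macro-mets against DTC 4 rose in NSG and 1 in BALB/c mice (all genes 21.3% and 16.6%). The list medians were -0.06 in NSG and 0.09 in BALB/c DTC against tumours, and 0.46 in NSG and -0.20 in BALB/c macro-mets against DTC. The procollagen C-proteinase Bmp1 fell in DTC against tumours in NSG (-0.97 ± 0.12, adjusted p = 1.79e-06) and BALB/c mice (-0.41 ± 0.12, adjusted p = 0.00724). The lysyl oxidase family gene Loxl3 rose in macro-mets against DTC in NSG (1.35 ± 0.18, adjusted p = 6.07e-07) and BALB/c mice (0.73 ± 0.18, adjusted p = 0.00272).

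Of 9 tested collagen receptor genes, Itga10, the alpha chain of a collagen-binding integrin of cartilage, rose in every step: by 0.65 ± 0.16 in NSG and 1.09 ± 0.16 in BALB/c DTC against tumours, and by 1.21 ± 0.15 and 1.32 ± 0.16 in macro-mets against DTC (largest adjusted p = 0.00251). Itga2, the alpha chain of the main epithelial collagen receptor, fell in macro-mets against DTC in NSG (-3.22 ± 0.30, adjusted p = 9.47e-09) and BALB/c mice (-1.57 ± 0.30, adjusted p = 0.000268). Itga1 went opposite ways in DTC against tumours, 0.86 ± 0.23 in NSG and -1.65 ± 0.24 in BALB/c mice, and the difference was called (2.51 ± 0.33, adjusted p = 2.87e-06). In all, 4 receptor genes rose and 1 fell in NSG DTC and 1 rose and 2 fell in BALB/c DTC against tumours, and 1 rose in macro-mets against DTC in each strain while 4 fell in NSG and 1 in BALB/c mice. The shares of all genes were 16.0% and 9.55% in NSG DTC and 20.4% and 21.0% in BALB/c DTC, and 21.3% and 22.4% in NSG and 16.6% and 14.2% in BALB/c macro-mets. The list medians were 0.77 in NSG and -0.44 in BALB/c DTC against tumours (all genes 0.06 and -0.09), and -0.78 in NSG and -0.20 in BALB/c macro-mets against DTC (all genes 0.02 and -0.04).

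Of 15 tested partners of type IV collagen in the basement membrane (laminins, perlecan, agrin and others), 9 were higher in NSG than in BALB/c tumours (12.6% of all genes; median 0.77, all genes -0.08), the comparison in which Col4a1 and Col4a2 were higher too. They included the laminin chain Lamb1 (0.91 ± 0.13) and peroxidasin, Pxdn (1.12 ± 0.16), which forms the sulfilimine bonds of type IV collagen (largest adjusted p = 8.35e-06). In BALB/c DTC against tumours, where Col4a1 and Col4a2 rose, 1 partner rose, the perlecan gene Hspg2 (0.77 ± 0.22, adjusted p = 0.00612), and 1 fell, the agrin gene Agrn (-0.36 ± 0.13, adjusted p = 0.0303), beside 20.4% and 21.0% of all genes. In macro-mets against DTC 6 rose and 2 fell in NSG and 4 rose and 2 fell in BALB/c mice (all genes 21.3% and 22.4% in NSG, 16.6% and 14.2% in BALB/c mice). Of these, Lama3, a chain of the laminin that anchors epithelia, fell in NSG (-2.53 ± 0.21, adjusted p = 4.65e-10) and BALB/c mice (-1.22 ± 0.21, adjusted p = 3.81e-05), and Lamc1 rose in both (0.65 ± 0.16, adjusted p = 0.0014, and 1.07 ± 0.16, adjusted p = 7.68e-06).

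Of 20 interstitial matrix partners, 2 rose and 9 fell in NSG DTC and 10 fell in BALB/c DTC against tumours (medians -0.53 and -0.92). Of all genes 16.0% rose and 9.55% fell in NSG DTC, and 21.0% fell in BALB/c DTC (medians 0.06 and -0.09). In macro-mets against DTC 9 rose and 1 fell in each strain (medians 0.86 in NSG and 0.53 in BALB/c mice), beside 21.3% and 22.4% of all genes in NSG and 16.6% and 14.2% in BALB/c mice (medians 0.02 and -0.04). Fbln1, an elastic fibre and basement membrane glycoprotein, rose in macro-mets against DTC in NSG (2.33 ± 0.19, adjusted p = 4.12e-10) and BALB/c mice (2.72 ± 0.19, adjusted p = 2.51e-11), and tenascin C, Tnc, fell in NSG mice (-2.10 ± 0.21, adjusted p = 1.06e-08) and less in BALB/c mice (-0.58 ± 0.21, adjusted p = 0.037; difference -1.52 ± 0.30, adjusted p = 0.00045).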

How the data were processed

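RNA of 30 libraries (6 groups of 5) was extracted with a miRNeasy Micro kit and sequenced, per the labels' protocols. Reads were processed with Trimmomatic 0.36 and STAR 2.5.2b on GRCm38/mm10, per the submitters' processing notes. The counting tool, its strand setting, the annotation release and the gene lengths behind TPM are not given in the sources used here. The deposited raw count table (49315 genes) was tested as it stands, and TPM are the authors' deposited values, used for levels only. Total counts were 29832098 to 65621525 per library. Intervals and floors cover counting error only.

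Groups were compared with edgeR 4.0.16 (R 4.3.3): filterByExpr by group (17774 genes, 99.969% of counts), TMM, 1 mean per group, robust quasi-likelihood test with 24 residual degrees of freedom, Benjamini-Hochberg adjustment over all genes, called at 0.05 (median biological coefficient of variation 0.269). Strain differences of a step are interaction contrasts of the same fit. Alternatives were RLE size factors, no low-count filter, DESeq2 1.42.0, limma 3.58.1 on log2(TPM + 1), only the groups compared, offsets for GC content and length from GENCODE M21, and leaving out each library in turn. Fits without the 4 libraries poorest in genes and without the 2 lung-rich libraries were added after seeing the data. The fit was tested on simulated data. Members and gene lists were chosen with earlier results of these data known.

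Described by library were the genes of highest mean TPM (4 fibrillar, 2 basement membrane, 3 type VI and 6 other). Further names were up to 3 called members per direction and comparison with the largest change among those whose mean log2 CPM reached 0, and, from the matrix lists, up to 3 per direction with the smallest adjusted p among those that reached 2. Col4a5, Col4a3, Col4a4, Col13a1, Col6a4, Col5a2, Col24a1, Col2a1, Col9a1, Col9a3, Col10a1, Col11a1, Col15a1 and Col28a1 are named outside that rule where a class is described in full. Promoters of 34 of the 42 members were found in the RefSeq table (GRCm38.p6).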

Additional observations from a re-analysis of the deposited data

Results flagged for a closer look

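Single libraries stood apart from the other 4 of their group in 11 of 90 checks of 15 genes in 6 groups, by a gap to the nearest library of more than 0.71 of the group's range. Chance alone would give about 1 in 20 for independent values with a normal distribution. These checks were made on TPM of genes that share libraries, so that rate cannot be set against the count. In BALB/c tumour 4 this held for Col1a1 (144.4 TPM, next 36.2), Col1a2 (18.77 TPM, next 5.05), Col17a1 (39.05 TPM, next 8.25) and Col6a3 (4.744 TPM, next 0.834). In NSG macro-met 3 it held for Col1a1 (69.69 TPM, next 26.8), Col1a2 (12.64 TPM, next 4.39), Col3a1 (18.2 TPM, next 8.09) and Col17a1 (14.72 TPM, next 2.10). The other cases were Col1a2 in BALB/c DTC 1 (6.987 TPM), Col6a3 in BALB/c macro-met 3 (3.259 TPM) and Col16a1 in NSG tumour 5 (94.14 TPM).

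The strains differed in the change from tumour to DTC (NSG minus BALB/c, log2) for Col4a1 (-1.27), Col4a2 (-1.28), Col18a1 (-1.07), Col7a1 (-0.99), Col12a1 (1.82) and Col8a1 (0.76). In the change from DTC to macro-met they differed for Col4a2 (0.82), Col6a1 (0.65), Col6a2 (1.14), Col12a1 (-1.96) and Col8a1 (-1.20). In the change from tumour to macro-met they differed for Col3a1 (2.77) and Col7a1 (-0.92). The call of Col4a2 in the step from DTC to macro-met ended in 13 of 20 omissions of 1 library, all but those of BALB/c DTC 1 or 4, NSG DTC 2 or 4, BALB/c macro-met 2 and NSG macro-met 2 or 5 (0.63 to 0.83). The call of Col7a1 in the step from tumour to macro-met ended in 16 of 20, all but those of BALB/c tumour 1 or 3, NSG tumour 3 and BALB/c macro-met 1 (-0.99 to -0.79). All are edgeR interaction contrasts with an adjusted p under 0.05.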

How the results depend on the processing

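Of 134 called changes of named members, RLE size factors kept 128, no low-count filter 121, DESeq2 all 134, limma on log2(TPM + 1) 104 and GC and length offsets 120. Using only the groups compared kept 112 of 125, leaving out the 4 libraries poorest in genes 112 of 133 and leaving out the 2 lung-rich libraries 119. In the omissions of 1 library 92 of 134 were kept in all, and no called change took the opposite sign under any of these. The number of members called moved by more than 1.5 times in these cases: NSG DTC against NSG tumours 7 with limma (14 with edgeR); NSG against BALB/c tumours 11 with DESeq2, 11 with the offsets and 13 without the libraries poorest in genes (7 with edgeR on all libraries); NSG against BALB/c macro-mets 5 with DESeq2 and 8 with only those groups (2). For strain differences, the step from DTC to macro-met gave 5 with limma (9), and that from tumour to macro-met 2 with no filter and 8 with DESeq2 (4). The causes were not tested.

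Leaving out 1 library gave these ranges of members called. Against tumours they were 8 to 12 for NSG DTC, 20 to 23 for BALB/c DTC, 9 to 11 for NSG macro-mets and 14 to 22 for BALB/c macro-mets. Against DTC they were 14 to 20 for NSG and 10 to 14 for BALB/c macro-mets. Between strains they were 6 to 11 in tumours, 6 to 7 in DTC and 1 to 2 in macro-mets, and for the strain differences of a step 7 to 11 (tumour to DTC), 6 to 10 (DTC to macro-met) and 1 to 6 (tumour to macro-met).

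Some changes that were not called took the opposite sign and were called under an alternative. Without the libraries poorest in genes these were Col1a1 between NSG and BALB/c tumours (0.63), Col6a3 in BALB/c DTC against tumours (0.82), Col17a1 in the strain differences from DTC to macro-met (-1.12) and from tumour to macro-met (-1.86), and Col27a1 in BALB/c DTC against tumours (0.89), between tumours (0.94) and in the strain difference from tumour to DTC (-1.30). Leaving out 1 library, Col27a1 ranged from -0.70 to 1.16 between tumours and from -1.43 to 0.42 in that strain difference, with the values called those without BALB/c tumour 4 (1.16 and -1.43). With the offsets Col8a1 gave -0.38 in NSG DTC against tumours.

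Over all genes, higher and lower calls split differently under some scalings. In NSG DTC against tumours 2840 genes were higher and 1698 lower with edgeR, 1721 and 2676 with the offsets and 5015 and 786 with limma on TPM. In NSG against BALB/c DTC 3851 were higher and 3048 lower with edgeR, and 5718 and 1598 with limma on TPM. In NSG against BALB/c macro-mets 135 were higher and 335 lower with edgeR, 366 and 546 with DESeq2 and 451 and 446 with the offsets. Among the members, BALB/c macro-mets against tumours gave 10 higher and 10 lower with edgeR, 8 and 14 with the offsets and 11 and 5 with limma. BALB/c DTC against tumours gave 8 higher and 14 lower with edgeR and 12 and 11 without the libraries poorest in genes.

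No paired analysis was possible because the replicate labels are not shared between groups. Members below about 1 TPM rest on few counts per library, host RNA in the sorted cells was not separated from that of 4T1 cells, and in the comparisons with tumours stage cannot be told apart from organ and route. In strain comparisons that use tumours or macro-mets, strain cannot be told apart from day.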
